A study of Mus musculus with 12 samples.

Results

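Potassium channel subunits were followed in cerebral cortex of 8-week-old mice, with or without Nsd1 in the neural lineage. Members were all rows of the deposited table whose gene symbol is Kcn, then letters, then a final number. This gave 92 of 34193 genes: 40 voltage-gated pore subunits, 15 inward rectifiers, 14 two-pore subunits, 8 subunits of the calcium-activated and Slo families, and 15 auxiliary subunits. The cKO mice were Nsd1 flx/flx; Nestin-cre +/-, with both Nsd1 alleles flanked by loxP sites and Cre driven by Nestin in the neural lineage, so cells of other origin in the tissue keep Nsd1. The controls were Nsd1 flx/flx; Nestin-cre -/-, and so share the flanked alleles but carry no Cre; no Cre-bearing mouse without flanked alleles is among the samples analysed here. Each genotype had 6 RNA-seq libraries of ribosomal RNA-depleted total RNA, called biological replicates in the labels. As no animals are named there, p-values reflect how far these 12 samples scatter, which may in part be technical. NSD1 is a methyltransferase of lysine 36 on histone H3, and the series title links it to DNA methylation outside CG sites in neurons.

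Potassium channels let potassium leave the cell and so set the resting potential, end action potentials and limit repetitive firing. Voltage-gated (Kv) pores are tetramers that open on depolarisation, inward rectifiers (Kir) pass current near rest, two-pore channels carry leak current, and calcium-activated channels couple firing to calcium entry. Auxiliary subunits form no pore of their own, but change the surface level and gating of the pores they bind. Within cortex, Kv3 channels are known for the fast spiking of parvalbumin interneurons, and Kcnj10, which encodes Kir4.1, for potassium uptake by astrocytes.

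Reads assigned to genes numbered 10.5 to 27.0 M per library, so that 3 reads were worth 1.98 to 5.64 normalised reads. Nsd1 stood at 4235 ± 850 normalised reads in control and 3251 ± 299 in cKO libraries (SD, n = 6 per genotype), and its log2 fold change of -0.36 did not pass (limma, adjusted p = 0.383). That value covers the whole gene and does not measure recombination. The columns of the table are numbered within genotype, and libraries 1 to 3 of each genotype held many reads of Y-linked genes, while libraries 4 to 6 held none, apart from 3 reads in cKO library 6. Control libraries 4 and 5 stood apart in mitochondrial ribosomal RNA, at 14.2% and 11.5% of reads against 1.46% to 6.00% in the other 10. Slc17a7, the vesicular glutamate transporter that marks excitatory cortical neurons, ranged from 22117 to 33908 normalised reads in control libraries (median 28271) and from 26356 to 30320 in cKO libraries (median 28335). It is 1 of 6 excitatory neuron markers examined, of which 4 had a log2 fold change above 0, 2 below, and none was called. Another of them, Camk2a, stood at -0.17. Among controls Camk2a was highest in libraries 4 and 5 (90754 and 84482), where Slc17a7 was lowest (22208 and 22117).

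Levels were first set against each other per kilobase of the longest annotated transcript, as means of the 6 control libraries. The highest was Kcnab2, a cytoplasmic beta subunit of Kv1 channels, at 2464 ± 148 normalised reads per kilobase (SD). It was followed by Kcnj4, an inward rectifier of forebrain neurons, at 1137 ± 185, by Kcna1, a Kv1 pore of axons, at 1116 ± 300, and by Kcnh3, an ether-à-go-go type pore of the forebrain, at 1002 ± 47.4. The spreads of these last 3 overlapped. The highest two-pore subunit was Kcnk1, a leak channel, at 683 ± 87.9. In the calcium-activated class Kcnt2, a sodium-activated Slo pore, stood at 373 ± 145 per kilobase and Kcnma1, the BK channel pore, at 251 ± 57.6. The sources used here do not state whether intronic reads were counted, and the order of levels depends on it.

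At the other end, 16 members had a mean under 10 normalised reads over the 12 libraries and were not tested. Of these, 11 were at or below 3 reads in every library, and Kcnk16, Kcnk18 and Kcnmb3 had no read in any. The untested members were Kcna7, Kcna10, Kcnh8 and Kcnv2 among voltage-gated pores, Kcnj1 and Kcnj15 among inward rectifiers, Kcnk7, Kcnk15, Kcnk16 and Kcnk18 among two-pore subunits, Kcnn4, and the auxiliary subunits Kcne1, Kcne2, Kcne3, Kcnmb1 and Kcnmb3.

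**Figure D1:**
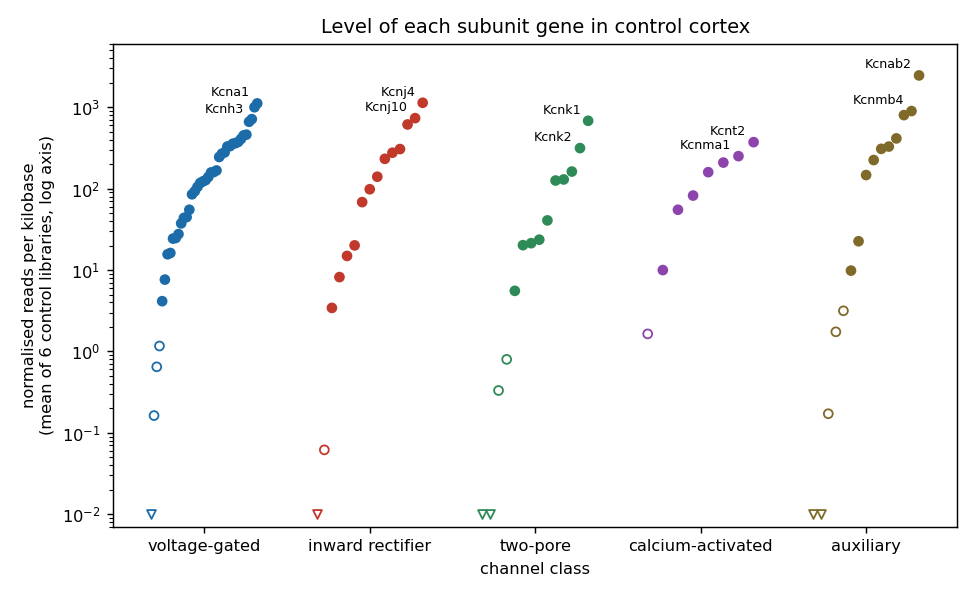
Mean level of each of the 92 subunit genes in the 6 control libraries, in normalised reads per kilobase of transcript on a log axis, by channel class. Filled points are the 76 tested genes, open points the 16 below the filter, and triangles mark values under 0.01; the 2 highest genes of each class are named, with Kcnab2 on top at 2464.

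The comparison of cKO with control asked which subunits differ in cortex once Nestin-cre is present. Of 76 members tested, 1 rose in the cKO and none fell (limma, adjusted p under 0.05 over 14397 genes), against 0.834% of all tested genes called in either direction. This was Kcng4, a silent Kv subunit. At an unadjusted p under 0.05 there were 8 members, or 10.5% of those tested, against 9.73% of all tested genes, a share near the background. By direction they were 7 higher (9.21%, against 4.61% of all tested genes) and 1 lower (1.32%, against 5.13%). The count of 8 became 5 without control library 3, 4 or 5, without cKO library 5, or with genotype as the sole term, and 12 without control library 2 or cKO library 3. edgeR on recovered reads called Kcng4 as well and no other member (0.827% of all genes), and DESeq2 called Kcng4 and Kcnj14 (1.17% of all genes). The authors' deposited table called the same pair (adjusted p = 0.00162 and 0.0458), with 0.906% of its genes called.

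Kcng4 encodes a Kv6 subunit, which forms no working channel alone and joins Kv2 subunits to shift their gating. Its control libraries held 212, 186, 170, 152, 143 and 135 normalised reads in the order of their numbers, and its cKO libraries 235, 259, 241, 202, 211 and 243. A single control library, number 1, lay above the lowest cKO library, and within libraries 1 to 3 and within libraries 4 to 6 every cKO value was above every control value, as in 1.25% of all tested genes. The means were 166 ± 29.1 and 232 ± 21.5 (SD, n = 6 each), a ratio of 1.39 and a log2 fold change of 0.49 (SE 0.09, 95% interval 0.29 to 0.69, limma adjusted p = 0.0147). The log2 fold change was 0.37 in libraries 1 to 3 and 0.60 in libraries 4 to 6, and the difference did not pass (limma interaction, adjusted p = 0.671). The limma call ended without cKO library 2 (adjusted p = 0.0509), without cKO library 6 (0.0526), without control libraries 4 and 5 together (0.0972, where 0.668% of all genes were called) and without the term for Y-linked reads (0.0703), with log2 fold changes of 0.44 to 0.49. It was also not called within either set of libraries (0.872 and 0.0553), with 3 libraries a genotype. These were contrasts in a limma fit of 4 groups to all 12 libraries.

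The 6 fast-spiking interneuron markers (Pvalb, Tac1, Cox6a2, Syt2, Nxph1 and Gad1) were all detected and none was called. Their summed level was 5363 to 7623 normalised reads in the controls, highest in control libraries 1 and 2, where Kcng4 was also highest among controls, and 5959 to 7229 in the cKO. Gad1, a gene of all GABAergic neurons, made up most of that sum, and the markers did not all move together. In control libraries 1 and 2 Tac1 (168 and 161) and Cox6a2 (78.1 and 64.3) were at their lowest among controls, while Syt2 (746 and 743) was at its highest. Between genotypes 3 of 6 were below 0, with Tac1 at -0.36 (limma, unadjusted p = 0.018, adjusted p = 0.457) and Syt2 at 0.33 (adjusted p = 0.520). The part of these markers in the Kcng4 result was not tested. In bulk tissue, more cells of a type and more RNA per cell cannot be told apart.

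The promoter window of Kcng4 is shown beside that of Kcnmb4, the member with the smallest p among those lower in the cKO. Kcnmb4 was not called, and the pair was picked because it differs in CpG content. CpG is the sequence in which most DNA methylation outside neurons lies. Each window runs from 250 bases before to 50 after a RefSeq start (GRCm38.p6), 5′ to 3′ on the gene's strand, with CG in capitals. The window of Kcng4 is chr8:119635631-119635930, minus strand, and that of Kcnmb4 is chr10:116473474-116473773, minus strand.
Kcng4: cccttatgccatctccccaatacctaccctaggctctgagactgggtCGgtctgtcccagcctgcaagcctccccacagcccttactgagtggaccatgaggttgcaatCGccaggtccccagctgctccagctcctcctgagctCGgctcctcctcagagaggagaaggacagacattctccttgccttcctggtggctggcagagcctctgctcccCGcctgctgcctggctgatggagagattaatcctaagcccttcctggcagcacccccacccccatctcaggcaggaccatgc
Kcnmb4: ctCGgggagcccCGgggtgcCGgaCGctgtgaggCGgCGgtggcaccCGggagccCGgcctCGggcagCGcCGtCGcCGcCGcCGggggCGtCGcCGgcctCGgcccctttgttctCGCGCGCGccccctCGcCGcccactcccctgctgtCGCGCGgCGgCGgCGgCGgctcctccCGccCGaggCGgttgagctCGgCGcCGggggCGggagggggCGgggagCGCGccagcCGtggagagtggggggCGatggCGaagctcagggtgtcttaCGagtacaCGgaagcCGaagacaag
The Kcng4 window holds 4 CG (61.3% G and C) and the Kcnmb4 window 48 (79.0%). A count of at least 48 was found in 1.19% of 27025 promoters, 1 window a gene, and a count of at most 4 in 38.3%. The table matched 67 of the 92 members, whose windows held 0 to 49 CG with a median of 10, against a median of 7 over all promoters. Kcnh2, Kcna6 and Kcnf1, also higher in the cKO at an unadjusted p under 0.05 (limma), held 19, 8 and 3 CG. Whether the CG count goes with the direction of change was not tested. These letters describe the window and are no measure of methylation, which was not analysed here.

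**Figure D2:**
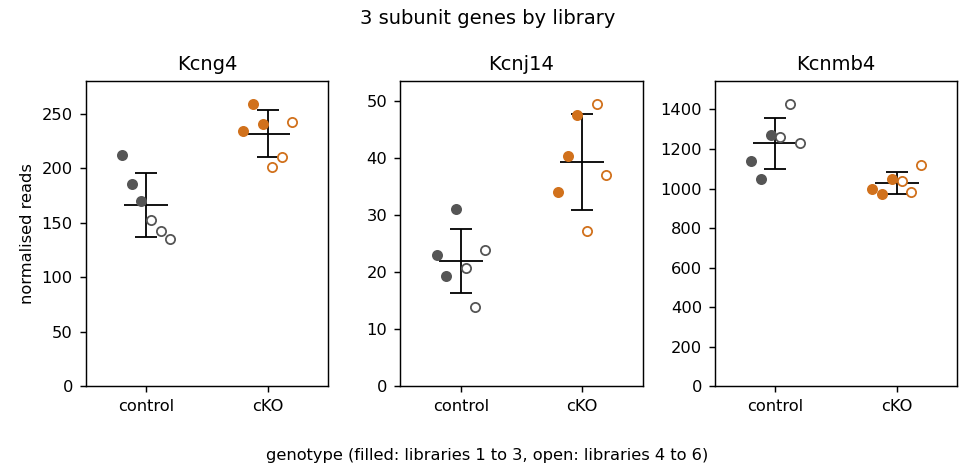
Normalised reads of Kcng4, Kcnj14 and Kcnmb4 in each of 12 libraries, with mean and SD bars (n = 6 each). Filled points are libraries 1 to 3, with Y-linked reads, and open points libraries 4 to 6. For Kcng4 and Kcnj14 every cKO value is above every control value within both sets, as in 1.25% of all tested genes. Of the 3 genes, Kcng4 was called by limma.

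Among the voltage-gated pores, 27 of 36 tested members had a log2 fold change above 0 (75.0%, against 49.9% of all tested genes), with a median of 0.10 beside 0.00 for all tested genes. Kcnh2, the ERG channel of cardiac and neuronal repolarisation, ranged from 422 to 690 in the controls (median 508) and from 477 to 724 in the cKO (median 638), with overlapping groups (0.24, limma adjusted p = 0.482). Kcnf1, another silent partner of Kv2, and Kcna6, a Kv1 pore, also had an unadjusted p under 0.05, at log2 fold changes of 0.27 and 0.22.

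The most abundant members of this class did not pass the test. Kcna1 ranged from 3494 to 6228 normalised reads in the controls (median 3916) and from 4305 to 5655 in the cKO (median 5203). All cKO libraries lay within the control range, whose top was set by control libraries 1 and 2. Kcnh3 ranged from 3517 to 3940 (median 3687) and from 2486 to 3791 (median 3540), with cKO library 4 far below the others. Their log2 fold changes were 0.20 (95% interval -0.09 to 0.49) and -0.13 (-0.33 to 0.08).

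By family, all 6 tested Kv1 pores (Kcna1 to Kcna6) had values above 0, with log2 fold changes from 0.06 to 0.31. In libraries 1 to 3, 3 of these 6 were above 0 (median 0.03), and in libraries 4 to 6 all 6 were (median 0.26). Of the 4 Kv3 pores (Kcnc1 to Kcnc4), 3 were above 0, with a median of 0.10. The 9 tested silent subunits, of the Kcnf, Kcng, Kcns and Kcnv families, had 6 above 0 and a median of 0.07. Kcng4 stood apart from its own family in value, as Kcng1 had a log2 fold change of 0.12, Kcng3 of -0.04 and Kcng2 of -0.36. None of these 3 passed the limma test, and the difference between family members was not tested.

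**Figure D3:**
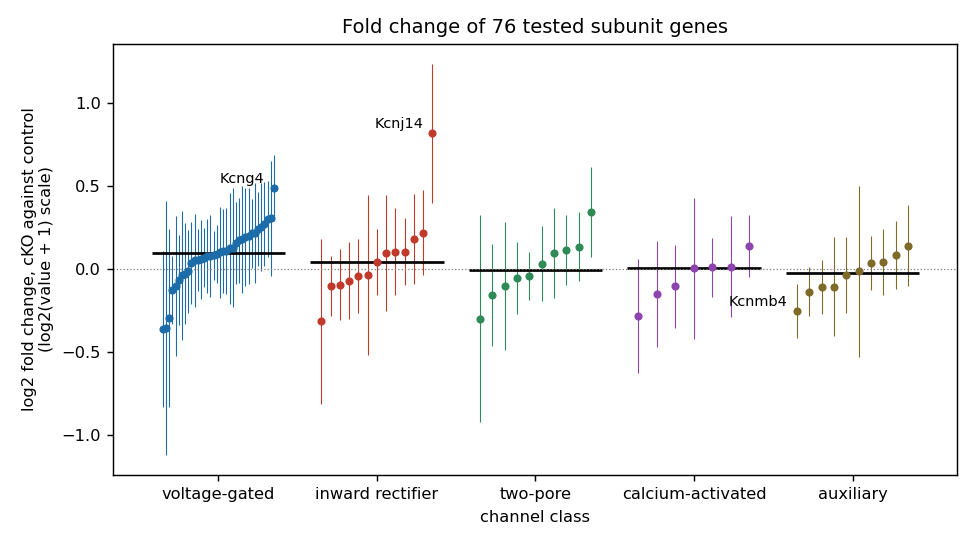
Log2 fold change of the 76 tested subunit genes with 95% intervals from limma, ordered within each channel class, and the median of each class as a black line. The medians run from -0.02 (auxiliary) to 0.10 (voltage-gated), and the 3 genes with an unadjusted p under 0.01 are named.

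Inward rectifiers had 7 of 13 tested members above 0 and a median log2 fold change of 0.04. Kcnj14, a strong inward rectifier of the Kir2 family, had the widest change of all 76 members but was not called. Its control libraries held 23.0, 19.4, 31.0, 20.7, 14.0 and 23.8 normalised reads, and its cKO libraries 34.1, 40.2, 47.5, 27.3, 49.5 and 37.0. Control library 3 lay above cKO library 4, and otherwise the groups were apart. Within each set of libraries every cKO value was above every control value, as in 1.25% of all tested genes. The means were 22.0 ± 5.62 and 39.3 ± 8.35 (SD, n = 6 each), a ratio of 1.79 and a log2 fold change of 0.82 (SE 0.20, 95% interval 0.40 to 1.24, limma adjusted p = 0.0763). DESeq2 (adjusted p = 0.0271), array weights (0.0263, with 1.17% of all genes called) and leaving out cKO library 4 (0.0497) brought it past the threshold, and the adjusted p was 0.451 without control libraries 4 and 5.

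The other 3 Kir2 members, Kcnj2, Kcnj4 and Kcnj12, had log2 fold changes of 0.18, 0.04 and -0.04. Kcnj2 ranged from 302 to 466 normalised reads in the controls (median 363) and 316 to 514 in the cKO (median 425). Kcnj4, the most abundant of the class per kilobase, ranged from 1898 to 2864 (median 2571) and from 1918 to 2800 (median 2587), and the cKO range lay inside that of the controls. G protein-gated Kir3 subunits, which mediate slow inhibition by GABA type B and other receptors, had 2 of 4 values above 0, with Kcnj9 at 0.22 and Kcnj5 at -0.31. Kcnj9 ranged from 1877 to 3017 in the controls (median 2311) and from 2383 to 3476 in the cKO (median 2630). The ATP-sensitive pores Kcnj8 and Kcnj11 had values of 0.10 and -0.10. None of these passed the limma test.

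Kcnj10 ranged from 3276 to 5220 normalised reads in the controls (median 3707) and from 3562 to 5066 in the cKO (median 4258). Its log2 fold change of 0.11 (95% interval -0.16 to 0.37) did not pass. Kcnj16, which joins it in astrocyte channels, had -0.07 (-0.30 to 0.16). The 8 astrocyte markers were all detected, 4 above 0 and none called, and summed to 105720 to 169945 normalised reads per control library and 113200 to 147531 per cKO library. The top control sums were those of libraries 4 and 5, where Kcnj10 was highest among controls as well. Most of each sum was Slc1a2, and Gfap, Gja1, Gjb6 and Fgfr3 were not highest among controls in both of those libraries. The part of the markers in these values was not tested.

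Two-pore subunits had 5 of 10 tested members above 0, with a median log2 fold change of 0.00. Kcnk6, a TWIK-type subunit, had the smallest p of the class, with 71.4 to 110 normalised reads in the controls (median 79.9) and 91.0 to 128 in the cKO (median 110). The groups overlapped, and the log2 fold change of 0.34 (SE 0.13) was not called (limma adjusted p = 0.452). Kcnk1, its abundant relative, ranged from 1314 to 1746 (median 1538) and from 1326 to 1819 (median 1693), and Kcnk13, a THIK channel, from 109 to 149 (median 122) and from 115 to 157 (median 138). Kcnk2, a TREK channel gated by stretch and lipids, ranged from 1104 to 1173 in the controls (median 1118) and from 1031 to 1251 in the cKO (median 1077). In the cKO, 5 of 6 libraries lay below the lowest control, and library 4 lay above the highest. The log2 fold change was -0.04 (95% interval -0.18 to 0.10), and -0.075 without cKO library 4 (limma adjusted p = 0.704). The 3 TREK and TRAAK members (Kcnk2, Kcnk4 and Kcnk10) had values of -0.04, -0.10 and -0.16.

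Calcium-activated and Slo subunits had 4 of 7 tested members above 0 and a median of 0.00. Kcnma1 ranged from 2102 to 3883 normalised reads in the controls (median 3216) and from 2508 to 3690 in the cKO (median 2924), with the cKO range inside that of the controls and a log2 fold change of 0.01 (95% interval -0.29 to 0.32). Its sign changed with the test used, being -0.01 in edgeR and in DESeq2. Kcnt1, a sodium-activated pore, ranged from 1075 to 1456 (median 1166) and from 1193 to 1467 (median 1366), at a log2 fold change of 0.14. The small-conductance channels Kcnn1, Kcnn2 and Kcnn3, which shape the afterhyperpolarisation, had values of 0.01, -0.10 and -0.15. Kcnn3 ranged from 116 to 175 (median 167) in the controls and from 94.9 to 187 (median 147) in the cKO.

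Kcnt2 had the lowest log2 fold change of this class, at -0.28 (95% interval -0.63 to 0.06, limma adjusted p = 0.544). Its control libraries held 1593, 1466, 1869, 3339, 3106 and 1588 normalised reads, and its cKO libraries 1667, 1378, 1654, 2174, 1555 and 1732. Control libraries 4 and 5 were far above the rest, and without them the log2 fold change was 0.02. The same libraries had the largest sums of the 8 oligodendrocyte markers, 121240 and 107935 normalised reads, against 69686 to 97950 in the other 10 libraries. Mbp and Mobp were highest there, whereas Mag (2386 and 2339), Cnp (5178 and 5476) and Cldn11 (2148 and 2336) were at their lowest among controls. None of the 8 was at 0 or called. Control libraries 4 and 5 also had the largest astrocyte marker sums of all 12 libraries (169945 and 153132). Among controls they had the largest excitatory neuron sums (135438 and 131201) and the smallest fast-spiking interneuron sums (5363 and 5621). Most of these sums came from Camk2a, highest there among controls, and from Gad1, lowest there. Other markers went the other way: Slc17a7, Nrgn (17446 and 20067) and Neurod6 (661 and 660) were at their lowest among controls. Cox6a2 (97.7 and 93.7) was at its highest. The part of any of these marker lists in the Kcnt2 values was not tested.

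Auxiliary subunits had 4 of 10 tested members above 0 and a median of -0.02. Kcnmb4, the neuronal beta subunit of BK channels, which slows their gating, had control values of 1138, 1047, 1270, 1259, 1429 and 1232 normalised reads and cKO values of 999, 974, 1050, 1036, 982 and 1121. Each cKO library lay below at least 5 of the 6 controls, and the groups overlapped through control library 2. The means were 1229 ± 130 and 1027 ± 55.0 (SD, n = 6 each), and the log2 fold change of -0.25 (SE 0.08, 95% interval -0.42 to -0.09) was not called (limma adjusted p = 0.276). In the GRCm38 annotation Kcnmb4os1 and Kcnmb4os2 overlap it on the other strand, and the use of strand in counting is not stated in the sources at hand. The pore it binds, Kcnma1, had the value of 0.01 given above. Kcnmb2, another BK beta subunit, had -0.11 (limma adjusted p = 0.772).

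Kcnip3, a KChIP that binds Kv4 pores and, as DREAM, also DNA, ranged from 1939 to 2442 normalised reads in the controls (median 2224) and from 1709 to 2234 in the cKO (median 2015), and did not pass (log2 fold change -0.14, limma adjusted p = 0.524). The other 3 KChIP genes had values from -0.04 to 0.09, and the Kv4 pores Kcnd1, Kcnd2 and Kcnd3 had -0.03, 0.22 and 0.18. Kcnab2 ranged from 8817 to 10397 (median 9735) and from 8251 to 9752 (median 8792), and was at -0.11, whereas Kcnab1 and Kcnab3 were at 0.04 and 0.14. None of these passed the limma test. Kcne4 was the single tested member of the Kcne family, with means of 26.2 (control) and 25.3 (cKO) normalised reads.

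Genes that bind or regulate potassium channels, but fall outside the naming pattern, were counted from a list of 37, of which 34 were in the table and 31 were tested. By limma over all genes 1 of them rose and none fell, beside 0.764% and 0.0695% of all tested genes: Aqp4, the astrocyte water channel that shares the endfoot with Kir4.1 (log2 fold change 0.53, adjusted p = 0.00973). The list had 22 of 31 above 0, beside 49.9% of all tested genes, and a median of 0.09. In libraries 1 to 3 it had 15 of 31 above 0 and a median of -0.003. In libraries 4 to 6 it had 20 of 31 above 0 and a median of 0.10. Kv2 and Kv4 partners were not called: Amigo1 stood at 0.20, Dpp6 at 0.17 and Dpp10 at 0.12. Among LGI and ADAM genes, whose proteins meet at Kv1-rich axons and synapses, Lgi1 stood at 0.22, Lgi2 at -0.05, Lgi3 at 0.35, Adam11 at 0.12, Adam22 at 0.28 and Adam23 at 0.21. The smallest limma adjusted p of these 6 was 0.382, for Lgi3. Kcne1l, a Kcne family gene whose symbol does not meet the rule, had 48.3 ± 10.2 and 64.7 ± 14.4 normalised reads (SD, n = 6 each; limma adjusted p = 0.489).

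Members of the voltage-gated class shifted together between libraries of the same genotype. The median deviation of its 36 tested members from their means, on the log2 scale, was 0.24 and 0.28 in control libraries 1 and 2 and -0.26, -0.13, -0.19 and -0.23 in control libraries 3 to 6. In the cKO the values were 0.09, 0.26, -0.08, 0.04, 0.15 and -0.04. All tested genes had medians of 0.00 to 0.01 in each library, where scaling by a size factor per library tends to hold them. These medians do not measure how far other sets of 36 genes moved, which was not tested. The spread within the controls was thus wider than the class median between genotypes, which was 0.02 without control library 3, 0.06 without cKO library 2 or 5, 0.14 without control library 1, and 0.15 without control library 2 or cKO library 3.

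Transcript length moved with these values. Tested voltage-gated members had a median transcript of 4.59 kb, against 3.21 kb for all tested genes, and the slope of each library's deviations on log2 transcript length was 0.05 and 0.12 in control libraries 1 and 2, -0.13, -0.05, -0.11 and -0.08 in control libraries 3 to 6, and 0.01, 0.11, -0.03, 0.09, 0.05 and -0.03 in the cKO. After subtracting this slope library by library, an alternative chosen after seeing the data, the class median was 0.05, with 21 of 36 above 0 (58.3%, against 47.3% of all genes). The median of all 76 members went from 0.05 to 0.01. Kcng4 kept its limma call there (log2 fold change 0.47, adjusted p = 0.0130, with 0.892% of all genes called).

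**Figure D4:**
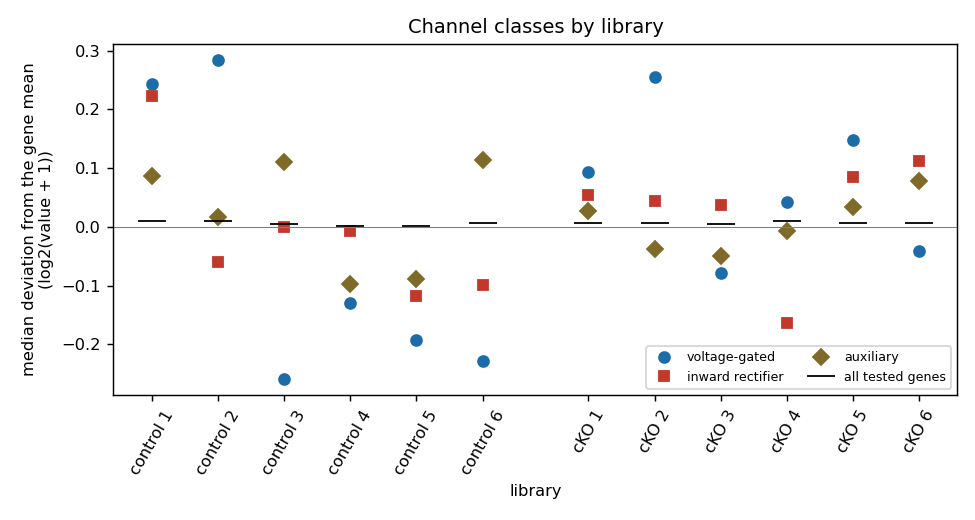
Median deviation of tested members from their gene means by library, on the log2(value + 1) scale, for voltage-gated, inward rectifier and auxiliary subunits, with all tested genes as dashes. Voltage-gated subunits range from -0.26 to 0.28 among the controls. All tested genes lie between 0.00 and 0.01, where scaling by size factor tends to hold them, and are no background for a class.

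The genotype effect was then compared between libraries 1 to 3 and libraries 4 to 6 of each genotype, as contrasts in a limma fit of 4 groups to all 12 libraries. The median of the voltage-gated class was 0.01 in the first set, with 20 of 36 above 0, and 0.21 in the second, with 28 of 36 (backgrounds 48.1% and 49.2% above 0). The second set includes control libraries 4 and 5. Signs were opposite in the sets for 33 of the 76 members. An unadjusted p under 0.05 was found for 5 members in the first set (6.58%, against 2.56% of all tested genes) and for 15 in the second (19.7%, against 22.5%). Tested directly, no member differed between the sets (limma interaction, 0 at an adjusted p under 0.05), and 6 had an unadjusted p under 0.05, or 7.89% against 8.77% of all tested genes.

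Those 6 were Kcnj9, Kcnab3, Kcnq1, Kcnj2, Kcnf1 and Kcnj10, each with an interaction adjusted p of 0.562. Kcnj9 had log2 fold changes of -0.09 in libraries 1 to 3 and 0.53 in libraries 4 to 6, Kcnab3, a Kv1 beta subunit, -0.15 and 0.44, and Kcnj2 -0.11 and 0.47. Kcnf1 had 0.02 and 0.52. Kcnj10 went the other way, with 0.35 and -0.14. The median log2 fold change of the 8 astrocyte markers was 0.17 and -0.21 in the same sets. For the 8 oligodendrocyte markers it was 0.05 and -0.12. It was -0.08 and 0.16 for the excitatory neuron markers and -0.04 and -0.07 for the fast-spiking interneuron markers. The part of any marker list in the Kcnj10 values was not tested. Kcnq1, a Kv7 pore of epithelia and heart, had 0.55 and -1.26 from means of 12.6 and 10.3 normalised reads, and it lies across several annotated genes, Kcnq1ot1 included, so that reads may be shared.

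**Figure D5:**
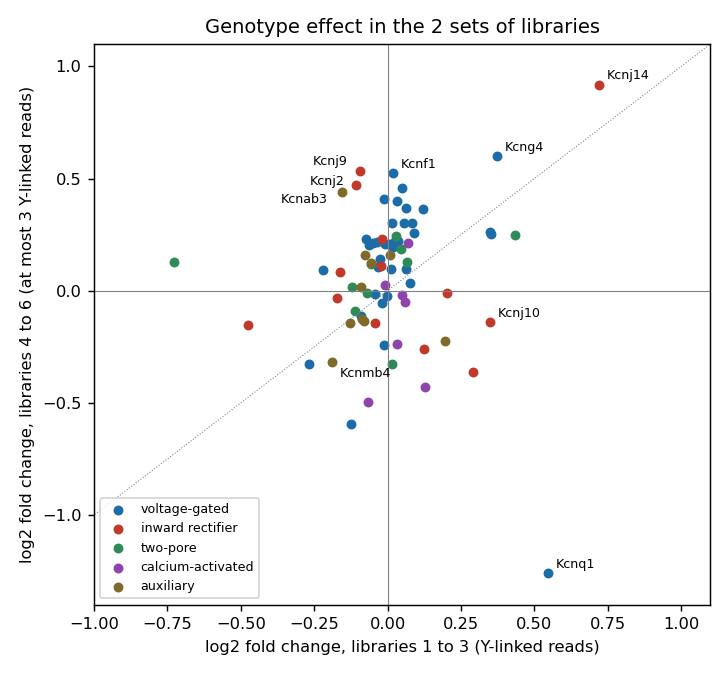
Log2 fold change of the 76 tested subunit genes in libraries 1 to 3 (x axis) and in libraries 4 to 6 (y axis), coloured by class, with a dotted line of equality. Kcng4 and Kcnj14 lie above 0 on both axes, at 0.37 and 0.60 and at 0.72 and 0.92, while Kcnj9, Kcnj2 and Kcnab3 lie below 0 on the first axis and above it on the second.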

How the data were processed

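RNA-seq was measured in 12 cortex libraries, 6 per genotype. The deposited table holds normalised counts, a signal that the authors made by dividing reads per gene by a size factor per library, per the file headers with DESeq2; it also holds the authors' log2 fold changes, Wald score and p-values. Per the submitters' processing notes, Trim Galore, Bowtie, STAR, bedtools and the mm9 build were used; versions, annotation and strand use are not given in the sources used here. Columns were assigned to genotype only, because 8 of 12 column numbers went against the labelled sex of the same number.

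Values were log2(value + 1) transformed, genes with a mean of at least 10 were kept (14397), and limma 3.58.1 with an intensity trend (R 4.3.3) was fitted on genotype and a term for Y-linked reads, with Benjamini-Hochberg adjustment over all genes. Whole reads were recovered for 100% of values (within 0.01 of a whole number) and tested with edgeR 4.0.16 and DESeq2 1.42.0, which called 119 and 169 genes. Depth was 10.5 to 27.0 M reads; intervals cover the spread between libraries. No 2 libraries of a genotype matched within counting noise (chi-square over its degrees of freedom 7.22 to 170 in 30 pairs). Transcript lengths came from GENCODE (longest basic transcript, GRCm38; 92 of 92 members). The limma and edgeR fits alone were tested on simulated counts, drawn independently with the same scatter setting for all genes. Those counts held no shift shared by a class or by transcript length.

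Members named are those called, the 3 smallest p and the 2 highest levels per kilobase in each class, and other members by family; 1 of these members, and a marker list, are not reported here, which leaves 20. Kcnf1, Kcna6 and the members that differed between library sets were named after their values were seen. Members, classes, partner and marker lists were chosen with earlier results of these data known. Alternatives covered the pseudocount, filter, scaling, test, library weights, covariate, replicate block, libraries left out and a length correction.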

Additional observations from a re-analysis of the deposited data

Results flagged for a closer look

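Among 40 groups of 6 libraries checked (20 members in each genotype), 4 held a library set apart from the other 5 by a gap past Dixon's 95% critical value; chance flags about 1 in 20 groups. In 3 of them it was cKO library 4, which was highest for Kcnj9 (3476 normalised reads, next 2733) and Kcnk2 (1251, next 1100) and lowest for Kcnh3 (2486, next 3441). Control library 3 was lowest for Kcnn3 (116, next 157).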

How the results depend on the processing

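With 1 member called, DESeq2 and array weights each gave 2. The fit with no term for Y-linked reads, the fit without control replicates 4 and 5, and the contrast within each library set gave 0. Leaving out 1 library gave 0 to 2. Values for a single library set are contrasts in a fit of 4 groups to all 12 libraries. The 8 members with an unadjusted p under 0.05 became 5 with no term for Y-linked reads and 5 to 12 when 1 library was left out. They became 5 within libraries with Y-linked reads and 15 within libraries without them. Over all genes, 120 calls became 58 with a mean of at least 50 and 97 to 123 with 1 library left out. They became 36 within libraries with Y-linked reads and 71 within those lacking them. The two-pore median was 0.12 in libraries without Y-linked reads and -0.031 to 0.074 with 1 library left out. Signs reversed for Kcnt2 without control replicates 4 and 5 (0.017), and in libraries with Y-linked reads alone for Kcnj9 (-0.095), Kcnj2 (-0.11), Kcnj4 (-0.023), Kcna1 (-0.012) and Kcnn3 (0.13). In libraries without them they reversed for Kcnj10 (-0.14) and Kcnma1 (-0.021). Kcnma1 was also at -0.010 with edgeR, -0.010 with DESeq2, -0.12 with the length trend removed and -0.10 to 0.10 with 1 library left out, and Kcnj4 at -0.064 without control replicates 4 and 5 and -0.0017 to 0.10 with 1 library left out. The difference between library sets was called for 0 members under the 19 alternatives run. The cause of these changes was not tested, other than fewer genes or libraries in the settings that leave some out. Whether column numbers pair the samples is unclear, and they were not treated as pairs because not every number exceeded a correlation of 0.1: deviations of same-numbered libraries correlated at 0.20, 0.46, 0.48, 0.05, -0.10 and 0.03, and 6 of 12 libraries correlated best with the library of their own number, a hint from the data and not from the design. With the replicate block, 118 genes and 1 member were called, Kcng4 at a limma adjusted p of 0.0494, and 11 members had an unadjusted p under 0.05. The 16 untested members fell below the filter at this depth, and low depth and lack of expression were not told apart.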
